A study of Mus musculus with 15 samples.

Results

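The Klf and Ier early response genes are 7 of the 57010 genes in a table of phospho-S6 precipitated RNA from mouse olfactory epithelium: Klf2, Klf4, Klf6, Klf10, Ier2, Ier3 and Ier5. They were chosen by symbol, as general early response genes that are not specific to neurons, to be set beside the genes that neurons switch on when they fire. The choice used no threshold, but it was made with earlier results of these libraries known, so the tests below describe each gene against the spread between mice and give no support to the choice. All 7 passed the filter on low counts that left 19229 genes. The libraries came from wild-type male C57BL/6J mice 8 weeks of age, 1 mouse per library and 3 per group. The odorants were acetophenone with decanal for the A+D and A&D groups and octanal with cis-3-hexenol for the O+C and O&C groups, and Control mice had empty papers. In A+D and O+C both odorants, 10 µL of each, were put on 1 filter paper. In A&D and O&C each odorant had its own paper, with a gap of about 1 mm between them. Every mouse spent 4 h in an odour-free chamber first and was exposed for 90 min. The precipitation is meant to enrich for active cells, but it was made from the whole epithelium and is not pure for neurons. No unprecipitated RNA and no group given a single odorant is used here, so the enrichment was not measured.

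Klf genes code for zinc finger transcription factors that bind GC-rich DNA, and Ier genes (immediate early response) code for small regulatory proteins of several unrelated kinds. Many of them are switched on within minutes by serum, growth factors or stress in nearly every cell type, without new protein synthesis. Ribosomal protein S6 is phosphorylated in neurons that have been active, so an antibody to its phosphorylated form pulls down ribosomes, and the messages on them, preferentially from such cells. In olfactory sensory neurons an odorant acts through cyclic AMP and calcium, and activity genes such as Nr4a1, an orphan nuclear receptor gene, follow.

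The promoters of Ier5, Klf4 and Nr4a1 are printed because Ier5 was higher and Klf4 lower in O&C mice, and Nr4a1 was the neuronal activity gene set beside the members. Each is the 250 bases before the transcription start, from RefSeq on build GRCm38.p6, 5′ to 3′ on the strand of the gene. Ier5 is at chr1:155099637-155099886 on the minus strand, Klf4 at chr4:55532476-55532725 on the minus strand and Nr4a1 at chr15:101266596-101266845 on the plus strand. Capitals mark TGACG, the short core of the cyclic AMP response element, on either strand; on the opposite strand it is printed as the reverse complement.
Ier5: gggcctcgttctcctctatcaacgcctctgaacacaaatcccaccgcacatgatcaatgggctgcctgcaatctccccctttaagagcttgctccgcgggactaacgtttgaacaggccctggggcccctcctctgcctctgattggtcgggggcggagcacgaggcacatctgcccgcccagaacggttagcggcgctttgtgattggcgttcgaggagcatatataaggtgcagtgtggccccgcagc
Klf4: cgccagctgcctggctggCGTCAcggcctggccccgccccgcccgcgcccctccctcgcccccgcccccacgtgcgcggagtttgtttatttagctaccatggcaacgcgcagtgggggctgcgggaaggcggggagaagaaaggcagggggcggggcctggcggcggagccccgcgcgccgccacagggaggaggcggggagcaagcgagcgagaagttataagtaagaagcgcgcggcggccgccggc
Nr4a1: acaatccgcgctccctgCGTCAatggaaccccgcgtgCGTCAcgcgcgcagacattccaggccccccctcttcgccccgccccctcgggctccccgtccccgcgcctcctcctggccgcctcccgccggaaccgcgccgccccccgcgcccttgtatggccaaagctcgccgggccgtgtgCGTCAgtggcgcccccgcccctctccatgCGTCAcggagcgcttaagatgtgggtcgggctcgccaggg
Promoters of 5 of the 7 members were matched, and those of Ier2 and Klf10 were not. In windows of 300 bases, 250 before and 50 after the start, both strands were searched for the CArG box (the serum response element core), TGACGTCA (the full cyclic AMP response element), TGACG (its core, which every full element contains) and TATAAA. Among 32851 promoters these were found in 1.63%, 1.79%, 20.8% and 13.6%. Nr4a1 held the TGACG core 4 times, a number reached or passed in 76 promoters (0.231%), with first bases 233, 213, 69 and 40 bases before the start. The other neuronal activity genes were not looked at singly, so this count describes Nr4a1 alone. Any link between these motifs and the levels was not tested. Klf2 and Klf4 held it 1 time each. None of the 4 motifs was found in these windows of Klf6, Ier3 or Ier5.

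The libraries held 22704193 to 25287077 counts. Each member had 156 to 2237 counts per library, and the largest counting error of a single value was 8.01%. The members' counts were whole in all 15 libraries, except Klf10 in 14, so their values showed little sign of reads divided between genes. Markers of the labelled tissue were present: Omp, the marker of mature olfactory sensory neurons, was at 4205 CPM or more in each library, and Cyp2g1 of sustentacular cells at 352 CPM or more. CPM are counts scaled to a common library size after TMM normalization. Library A+D 2 stood apart, with a mean correlation to the other libraries of 0.958 against 0.970 to 0.978 for the rest, and with 1.99% of its counts from ribosomal protein genes against 0.821% to 1.39%.

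The members did not move as a group. Against Control, 4 of 7 were called in O&C mice, beside 14.7% of all tested genes, with Ier2 and Ier5 higher and Klf4 and Klf6 lower. With any 1 library left out, at most 3 members were called there. Ier2 alone passed the test in O+C mice, 1 of 7 beside 8.09% of all tested genes, and it was higher (DESeq2 called 2, with Ier3 lower). No member passed the test in A+D or A&D mice, where 0.322% and 1.02% of all tested genes did. Gene by gene the changes were small, at most 1.59-fold, while Nr4a1 was 4.92-fold higher in the same O&C mice. Nr4a1 does not stand for all genes of its kind. Of the 12 neuronal activity early genes described below, 6 were called in O&C mice, and log2 fold changes ran from -0.48 to 3.37. A gene was called when its adjusted p was under 0.05 in edgeR's quasi-likelihood test, adjusted by Benjamini-Hochberg over all 19229 genes. The 4 comparisons share the 3 Control libraries.

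In O&C mice 4 of 7 members were called, 2 in each direction, against 14.7% of all tested genes, 9.33% higher and 5.41% lower. That count was 1 without Control 1 or without library O&C 3, and 2 without Control 3. None of the 6 fits that left out 1 library gave more than 3. The O+C mice had 1 of 7 called, higher, against 8.09% of all genes and 5.74% higher. In A&D mice edgeR called 0 of 7, against 1.02% of all genes, with 1 member (Ier2) at an unadjusted p under 0.05 and 0 called by DESeq2. In A+D mice edgeR called 0 of 7, against 0.322%, with 0 at an unadjusted p under 0.05 and 0 by DESeq2. The members' median log2 fold changes were -0.01 for A+D mice, 0.08 for A&D mice, 0.16 for O+C mice and 0.19 for O&C mice, and those of all genes were 0.02, -0.00, -0.01 and -0.04. The O&C median of the members is not firm, since without library O&C 2 it was 0.35. All 3 mice lay to one side of all 3 Control mice for 1 member in A+D mice, 2 in A&D mice, 3 in O+C mice and 6 in O&C mice, that is, all but Klf2 in O&C. The share of all tested genes with such separation was 14.9%, 20.4%, 33% and 40%.

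**Figure D1:**
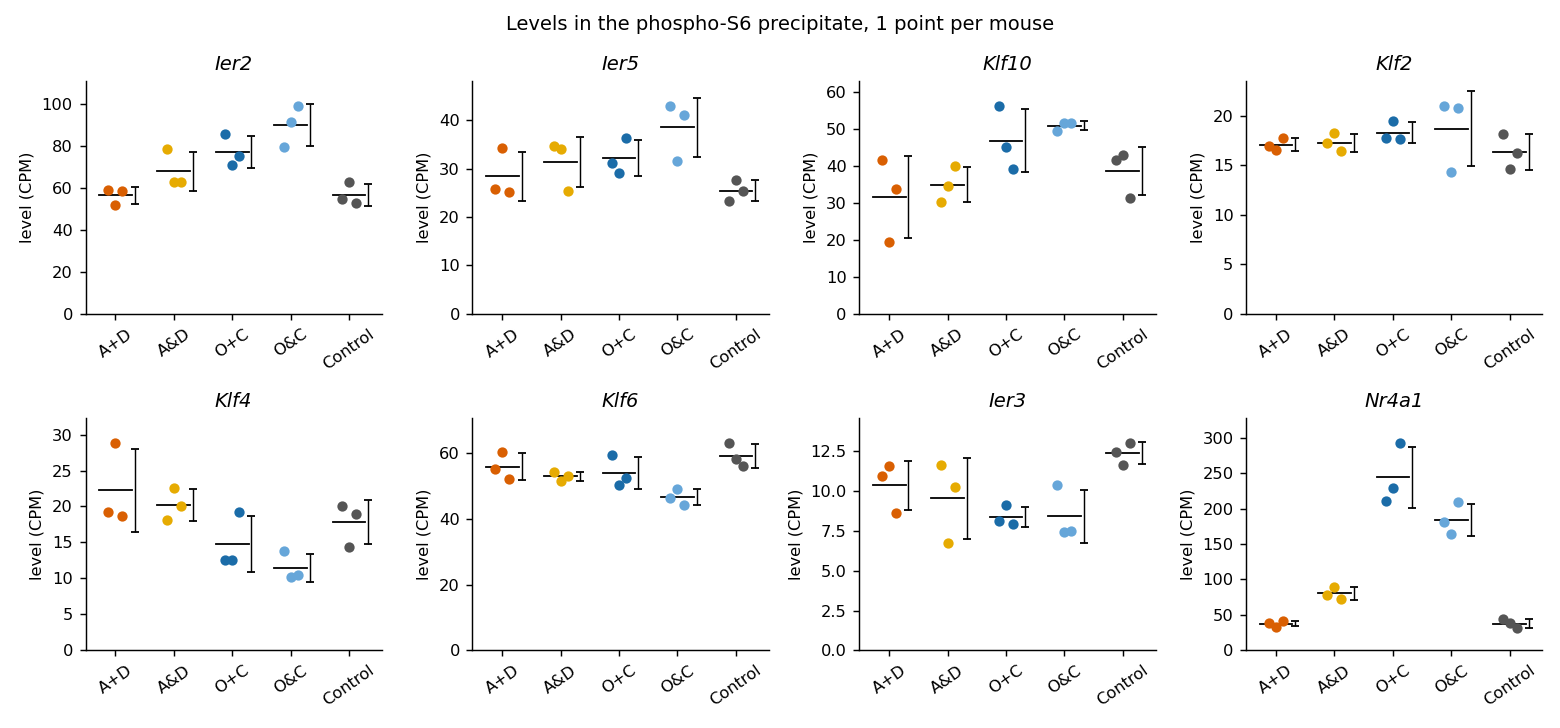
CPM of the 7 members and of Nr4a1 in each library (points), by group, with the group mean (horizontal line) and its SD (bar at the right of each group); each axis starts at 0 and has its own scale. Ier2 is highest in O&C mice at 79.6 to 99.2 CPM, Ier3 is highest in Control mice at 11.6 to 13.1 CPM, and Klf2 stays between 14.3 and 21.0 CPM throughout.

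Ier2, which codes for a nuclear protein with a part in early transcription, was the member with the broadest rise. Its level was 59.0, 51.7 and 58.7 CPM in A+D mice, 78.9, 62.7 and 62.8 in A&D mice, 86.0, 71.0 and 75.2 in O+C mice, and 79.6, 91.7 and 99.2 in O&C mice, against 54.8, 62.8 and 53.0 CPM in Control mice. All 6 O+C and O&C mice lay above every Control mouse, while A+D and A&D mice overlapped Control. Taken 1 group at a time, 33% of all tested genes in O+C mice and 40% in O&C mice were separated from Control, in either direction. The means ± SD (n = 3 each) were 56.5 ± 4.13 in A+D mice, 68.1 ± 9.32 in A&D mice, 77.4 ± 7.71 in O+C mice, 90.2 ± 9.90 in O&C and 56.9 ± 5.20 in Control mice. In order, O&C and O+C were neighbours whose ranges overlapped, as did O+C and A&D, A&D and Control, and Control and A+D. Against Control, the log2 fold change was 0.67 ± 0.12 (SE) in O&C mice, edgeR adjusted p = 0.00154, a 1.59-fold higher level. The call was kept when each of the 6 libraries was left out in turn, with an adjusted p of at most 0.0140. In O+C mice it was 0.44 ± 0.12, edgeR adjusted p = 0.0327. That call was lost without Control 1 (0.114), Control 3 (0.129), library O+C 1 (0.170) or library O+C 3 (0.0612). In A&D mice it was 0.26 with an adjusted p of 0.414, and in A+D mice -0.01 with an interval from -0.27 to 0.25.

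Mature neuron markers moved with Ier2. Their summed level, over 10 genes, was 10302 to 12664 CPM in A+D mice, 12532 to 15675 in A&D mice, 14817 to 18218 in O+C mice and 15094 to 20632 in O&C mice, against 8760 to 9699 CPM in Control mice. In the 7 libraries with a sum of 14817 CPM or more, Ier2 was at 71.0 to 99.2 CPM, and in the other 8 libraries at 51.7 to 62.8 CPM. Within O&C mice both went up in the same order, and in 4 of the 5 groups the mouse with the highest marker sum had the highest Ier2. Each of the 10 markers was called higher in O+C and O&C mice, 3 of 10 in A&D mice and 0 of 10 in A+D mice. In RNA precipitated from the whole epithelium, changes in cell number, in RNA per cell and in the share precipitated from a cell type cannot be told apart. The part of the markers in the Ier2 result was not tested.

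Ier5, whose protein aids the heat shock response, was higher in O&C mice. It stood at 43.0, 31.6 and 41.1 CPM in O&C mice and at 31.1, 29.1 and 36.3 CPM in O+C mice, against 23.4, 27.7 and 25.3 CPM in Control mice. Every O&C and O+C mouse was above every Control mouse. Such separation is common: 40% of all tested genes showed it in O&C mice and 33% in O+C mice, in either direction. Only the O&C difference was called, with 0.60 ± 0.16 on the log2 scale (edgeR adjusted p = 0.0173), and the O+C one was 0.34 (0.211). The test between O+C and O&C did not pass (-0.26 for O+C over O&C, interval -0.59 to 0.07). The O&C call was narrow, lost without Control 1 (0.0764), Control 3 (0.0556), library O&C 1 (0.0595) or library O&C 3 (0.0690). In A+D and A&D mice Ier5 was between 25.2 and 34.7 CPM, and both groups overlapped Control.

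Ier3, which codes for a stress-induced protein that acts on cell survival, ran the other way from Ier2 and Ier5. It was at 11.0, 11.6 and 8.61 CPM in A+D mice, 11.6, 6.72 and 10.3 in A&D mice, 8.14, 9.12 and 7.93 in O+C mice, and 10.4, 7.46 and 7.48 in O&C mice, against 12.5, 11.6 and 13.1 CPM in Control mice. All 12 odour-exposed mice lay below the lowest Control mouse, by a margin that is narrow at the top: 11.63 against 11.65 CPM. The same held when counts were scaled by RLE (11.64 against 11.67) or by total counts (11.50 against 12.01), checks added after the values were seen. The share of all tested genes with all 12 odour-exposed mice to one side of Control is not given here. How unusual this separation is was thus not tested. Ier3 was not called in any comparison with edgeR. Its log2 fold change was -0.56 in O+C (adjusted p = 0.0859) and -0.56 in O&C mice (0.0632). DESeq2 called it in both, with adjusted p-values of 0.0448 and 0.0400. The 2 groups were also called by edgeR when each was fitted with Control alone (0.0181 and 0.0228), and O&C was called without the low count filter (0.0465) or without library O&C 1 (0.0413).

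Klf4, a transcription factor of epithelial barrier cells and also of pluripotent cells, was lower in O&C mice. It stood at 19.2, 28.9 and 18.7 CPM in A+D mice, 18.1, 22.6 and 20.1 in A&D mice, 12.5, 12.5 and 19.3 in O+C mice, and 13.7, 10.2 and 10.5 in O&C mice, against 20.1, 14.4 and 19.0 CPM in Control mice. The O&C mice were all below the Control mice, and 2 of the 3 O+C mice were as well. In O&C mice 40% of all tested genes were separated from Control in either direction. The means ± SD (n = 3 each) were 22.3 ± 5.74 in A+D mice, 20.3 ± 2.24 in A&D mice, 14.8 ± 3.91 in O+C mice, 11.5 ± 1.96 in O&C and 17.8 ± 3.03 in Control mice, and when ordered by mean each group overlapped the next. The log2 fold change in O&C mice was -0.63 ± 0.21 (edgeR adjusted p = 0.0482), close to the threshold. It was lost without Control 1 (0.162), Control 3 (0.132), library O&C 2 (0.145) or library O&C 3 (0.176). The O+C value was -0.27 (0.468), and in A+D and A&D mice 0.32 and 0.18, neither called.

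Klf6, a widely made factor linked to injury responses, was lower in O&C mice by a small step. It was at 46.3, 49.2 and 44.3 CPM in O&C mice, against 63.2, 58.2 and 56.0 CPM in Control mice, with no overlap, as for 40% of all tested genes. The log2 fold change was -0.34 ± 0.10 (edgeR adjusted p = 0.0274). The call was lost without Control 1 (0.113), Control 2 (0.0660), library O&C 1 (0.0967) or library O&C 3 (0.154), and with no filter on low counts (0.107). The other odour groups lay between 50.2 and 60.2 CPM, and their log2 fold changes of -0.08, -0.16 and -0.13 (A+D, A&D, O+C) did not pass the test.

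Klf10, a factor induced by TGF-β, and Klf2, known from endothelial cells under blood flow, were not called against Control in any odour group. Klf10 was at 41.4, 19.4 and 33.6 CPM in A+D mice, 30.2, 34.5 and 39.9 in A&D mice, 56.1, 45.1 and 39.1 in O+C mice, and 49.4, 51.6 and 51.5 in O&C mice, against 41.6, 42.8 and 31.1 CPM in Control mice. O&C mice were all above Control with the tightest spread of the 5 groups, 50.8 ± 1.23 CPM (SD, n = 3), yet the log2 fold change of 0.40 had an adjusted p of 0.216. O&C and Control mice were separated in either direction for 40% of all tested genes. Fitted with Control alone, O&C was called (0.0169). Library A+D 2 held both the lowest Klf10 and the highest Klf4 of all 15. Klf2 was the member with the least movement, with log2 fold changes from 0.06 to 0.19 over the 4 comparisons and intervals within -0.24 to 0.50.

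**Figure D2:**
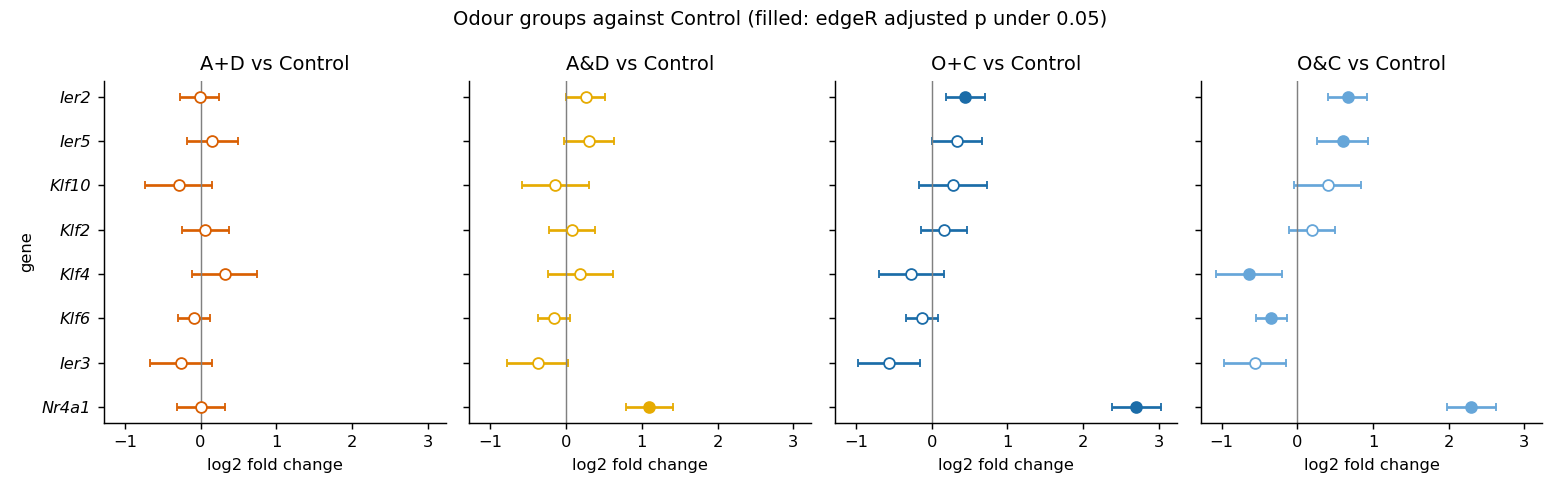
Log2 fold change (horizontal axis) of each member and of Nr4a1 in the 4 odour groups against Control, with 95% intervals; filled points had an edgeR adjusted p under 0.05. The members stay between -0.63 and 0.67, while Nr4a1 reaches 2.70 in O+C mice and 2.30 in O&C mice.

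Set against each other, the octanal and cis-3-hexenol mice differed from the acetophenone and decanal mice in 3 of 7 members. Ier2 and Klf10 were higher and Klf4 was lower in the O+C and O&C mice, taken as the mean of both deliveries, than in the A+D and A&D mice. The share of all genes called was 15.8%, with 9.03% higher and 6.74% lower. This contrast uses no Control library. Ier2 was at 71.0 to 99.2 CPM in the 6 O+C and O&C mice, with 51.7 to 78.9 CPM in the 6 A+D and A&D mice, a log2 difference of 0.43 ± 0.09 (edgeR adjusted p = 0.00358). Klf4 was at 10.2 to 19.3 CPM in O+C and O&C mice, with 18.1 to 28.9 CPM in A+D and A&D mice, a log2 difference of -0.70 ± 0.15 (edgeR adjusted p = 0.00446). For both, the ranges overlapped. Neither call was lost in any of the 12 fits that left out a library, where adjusted p reached 0.0146 for Ier2 and 0.0186 for Klf4. Klf10 was at 39.1 to 56.1 CPM in O+C and O&C mice, with 19.4 to 41.4 CPM in A+D and A&D mice, a log2 difference of 0.56 ± 0.15 (edgeR adjusted p = 0.0197). Leaving out A&D 1 (0.0589) or O+C 1 (0.0623) ended that call. Ier5 did not pass (0.24, adjusted p = 0.153), but did without A+D 2 (0.34, 0.0326). Klf2, Klf6 and Ier3 differed by 0.11, -0.12 and -0.24, none called.

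How the odorants were delivered made no difference that passed the test for any member. In A+D against A&D mice edgeR called 0 of 7, with 1 at an unadjusted p under 0.05 and 0 by DESeq2, and 0.12% of all genes. That 1 was Ier2, lower in A+D mice by a log2 difference of -0.27, interval -0.53 to -0.01, with every A+D mouse below every A&D mouse and an adjusted p of 0.994. The share of all tested genes so separated between A+D and A&D mice is not given here, so how unusual this separation is was not tested. In O+C against O&C mice edgeR called 0 of 7, with 1 at an unadjusted p under 0.05 and 0 by DESeq2. Here no gene of the whole table was called (0%), though 766 had an unadjusted p under 0.05. The member was Klf6, higher in O+C mice by 0.21, interval 0.0017 to 0.42. The interval of Klf4 was -0.07 to 0.80 and that of Klf10 -0.56 to 0.32, so these data do not show that the deliveries acted alike. The difference between the 2 delivery effects was called for 0 of 7 members, with 0 at an unadjusted p under 0.05 and 0 by DESeq2, and 0.0104% of all genes. The members' values of it lay between -0.12 and 0.23.

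Nr4a1 and some of the other genes that neurons switch on with activity had larger log2 fold changes than any member in O+C and O&C mice, while others did not pass the test. Nr4a1 was at 38.5, 33.5 and 41.0 CPM in A+D mice, 78.8, 90.1 and 72.3 in A&D mice, 211.0, 229.5 and 293.2 in O+C mice, and 180.7, 163.9 and 208.9 in O&C mice, against 43.6, 37.9 and 31.1 CPM in Control mice. A&D, O+C and O&C mice were all above Control, and A+D mice overlapped it. Of all tested genes, 20.4%, 33% and 40% were separated from Control in those 3 groups, in either direction. The log2 fold changes were 1.10 in A&D mice, 2.70 in O+C mice and 2.30 in O&C mice, with edgeR adjusted p-values of 2.83e-04, 1.52e-08 and 5.92e-08. Nr4a1 was also lower in A+D than in A&D mice, by -1.09 (edgeR adjusted p = 0.00243), and the difference between the 2 delivery effects was 1.50 (0.0115). Over the 12 neuronal activity early genes, which include the Nr4a and Egr families, Fos and Arc, 0 were called in A+D mice, 1 in A&D mice, 5 in O+C mice and 6 in O&C mice, all higher. Of all tested genes, 5.74% were called higher in O+C and 9.33% in O&C mice. In A+D and A&D mice 0.322% and 1.02% were called in either direction. The median log2 fold changes of the 12 were -0.09, 0.14, 1.30 and 1.02, and without library O+C 3 the O+C median was 0.83. The medians of the 10 mature neuron markers in the same comparisons were 0.29, 0.54, 0.83 and 1.01. Of the 7 activity genes that did not pass in O+C mice, Egr1, Fos and Npas4 were at 0.92, 1.38 and 1.97, and Arc, Egr2, Nr4a3 and Egr3 at -0.21, -0.53, -0.01 and 0.07, all named after their values were seen. No test compared the lists. Egr4, a zinc finger factor gene of that list, was higher by 2.11 on the log2 scale in O+C mice and by 1.98 in O&C mice. In O+C and O&C against A+D and A&D mice 7 of the 12 were called higher, beside 9.03% of all tested genes. The median of the 12 was 1.02, beside 0.11 for the Klf and Ier members and -0.03 for all genes. Nr4a2 was among the 7, at 1.32. Maff of this list and Lrrc3b of the next had no whole count in any library, so their reads may be shared with another gene, which was not tested.

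A second list held 5 genes whose level in olfactory neurons follows their activity, among them Kirrel2 and Sema7a, cell surface molecules of axon sorting, and Kcng1, a potassium channel subunit. All 5 were called higher in each group but A+D, where 1 of 5, Kcng1, was called. In A+D mice all 5 still had every mouse above every Control mouse, against 14.9% of all tested genes separated in either direction. The median log2 fold changes were 0.94 in A+D mice, 1.70 in A&D mice, 2.10 in O+C mice and 2.45 in O&C mice. Kcng1 averaged 23.3 ± 2.65 CPM in A+D mice, 37.1 ± 5.32 in A&D mice, 65.8 ± 19.9 in O+C mice and 73.2 ± 13.0 in O&C mice, against 10.1 ± 2.93 CPM in Control mice (SD, n = 3 each). Its A+D call (1.20, edgeR adjusted p = 0.0256) was lost without Control 1 (0.0658), Control 3 (0.0792), library A+D 2 (0.0925) or library A+D 3 (0.136), and with only A+D and Control in the fit (0.154). Against these, the members' largest median was 0.19. The list was chosen with earlier results of these libraries known, so its calls and medians are no independent yardstick for the members.

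**Figure D3:**
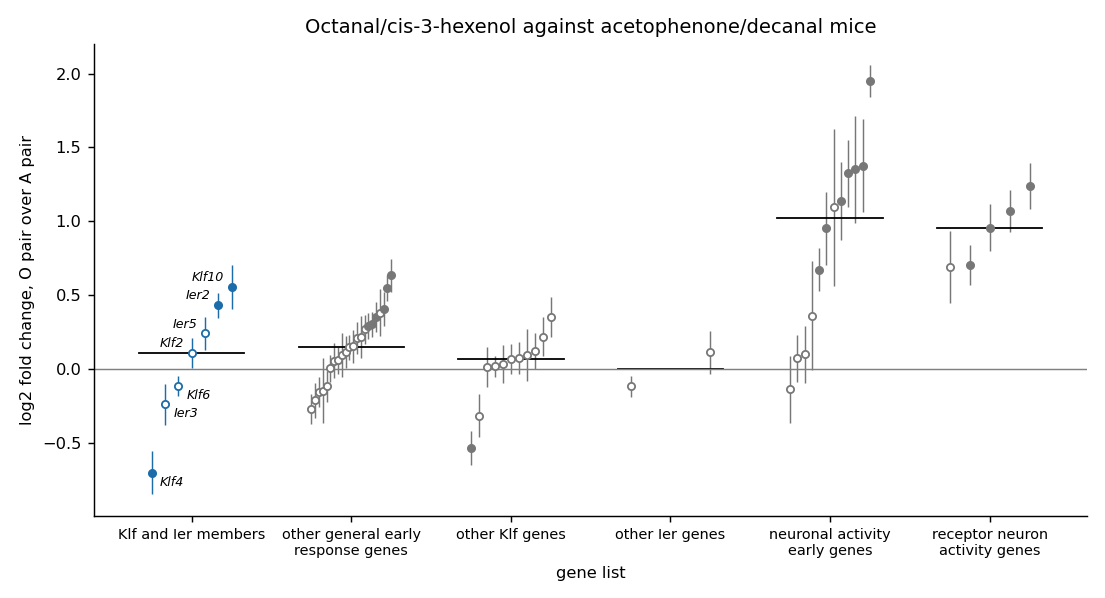
Log2 fold change of O+C and O&C over A+D and A&D mice (vertical axis) for the tested genes of 6 lists, with SE bars and list medians (horizontal lines); filled points had an edgeR adjusted p under 0.05. The Klf and Ier members run from -0.70 (Klf4) to 0.56 (Klf10) around a median of 0.11, while the neuronal activity early genes have a median of 1.02.

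Of 22 other general early response genes, 1 was called in O+C mice (higher) and 4 in O&C mice, 2 in each direction, with none called in A+D or A&D mice. The shares of all tested genes called were 8.09% in O+C and 14.7% in O&C mice. Their median log2 fold changes were -0.18 in A+D mice, -0.09 in A&D mice, -0.02 in O+C mice and -0.01 in O&C mice. Dusp1, a phosphatase gene that ends MAP kinase signals, was at 212.9, 183.8 and 198.2 CPM in O+C mice and 263.8, 230.7 and 271.3 in O&C mice, against 144.9, 162.4 and 127.6 CPM in Control mice. It was higher by 0.82 in O&C mice (edgeR adjusted p = 3.87e-04) and by 0.45 in O+C mice (0.0351). The O+C call was lost without Control 1 (0.100), Control 3 (0.155), library O+C 1 (0.155) or library O+C 3 (0.0783). Zfp36, whose protein speeds messenger decay, was lower by -0.56 in O&C mice (edgeR adjusted p = 0.0156), a call lost without Control 1 (0.0559), Control 2 (0.0942) or O&C 3 (0.0901). Ccn2, a matrix protein gene whose counts were not whole in any library, was lower by -0.54 (0.0242), lost without Control 2 (0.127), library O&C 2 (0.109) or library O&C 3 (0.0654). The fourth, Tiparp (0.52, edgeR adjusted p = 0.0350), is named after its value was seen. In O+C and O&C against A+D and A&D mice 6 of the 22 were called higher, beside 9.03% of all tested genes. Among the 6, Dusp1 (0.55) and Tiparp (0.63) had the smallest p-values.

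Relatives of the members by name were mostly flat. Of 13 other Klf genes 11 could be tested, since Klf14 and Klf17 had too few counts. Klf13 was higher in O+C mice (0.63, edgeR adjusted p = 0.0478), a call lost without Control 2 (0.178), Control 3 (0.157), library O+C 1 (0.248) or library O+C 3 (0.0816). Klf1, the factor of red cell precursors, was lower in O+C and O&C than in A+D and A&D mice (-0.54, edgeR adjusted p = 0.00604). No other call was made in this list. Of the other Ier genes, Ier3ip1 and Ier5l, neither was called, with values from -0.12 to 0.11 over the comparisons with Control and between odorant pairs.

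Cell type markers moved in the same comparisons as the members. In O&C mice, beside the 10 mature neuron markers that were higher, 4 of 6 sustentacular, 5 of 9 myeloid and other immune, 2 of 4 neutrophil, 1 of 8 endothelial, 1 of 6 stromal, 1 of 5 ensheathing glia, 1 of 5 horizontal basal cell, 1 of 4 respiratory ciliated cell and 5 of 5 red blood cell markers were lower than in Control mice. O+C mice had 3 of 6 sustentacular, 2 of 9 immune, 2 of 4 neutrophil, 3 of 8 endothelial, 1 of 6 stromal, 1 of 5 ensheathing glia and 1 of 5 horizontal basal cell markers lower. Immature neuron, globose basal cell and Bowman gland markers were not called in either group. Sustentacular markers summed to 1331 to 1677 CPM in O&C mice, against 2054 to 2428 CPM in Control mice, and immune markers to 546 to 748 CPM in O&C mice, against 943 to 1358 CPM in Control mice. No marker of these lists was called lower in A+D or A&D mice. In O+C and O&C against A+D and A&D mice, 8 of 10 mature neuron markers were higher, and 3 of 4 immature neuron, 4 of 9 immune, 2 of 4 neutrophil, 2 of 6 sustentacular, 2 of 6 stromal, 1 of 4 respiratory ciliated cell and 4 of 5 red blood cell markers were lower. Of all tested genes, 5.41% were called lower in O&C mice and 6.74% in this contrast between odorant pairs. In O+C mice 8.09% were called in either direction. Beside these shares, 1 call in a list of 4 to 8 markers says little about that cell type. None of the lists of other cell types stood at 0 in a library. The part of these shifts in the lower Klf4, Klf6 and Ier3 levels was not tested.

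**Figure D4:**
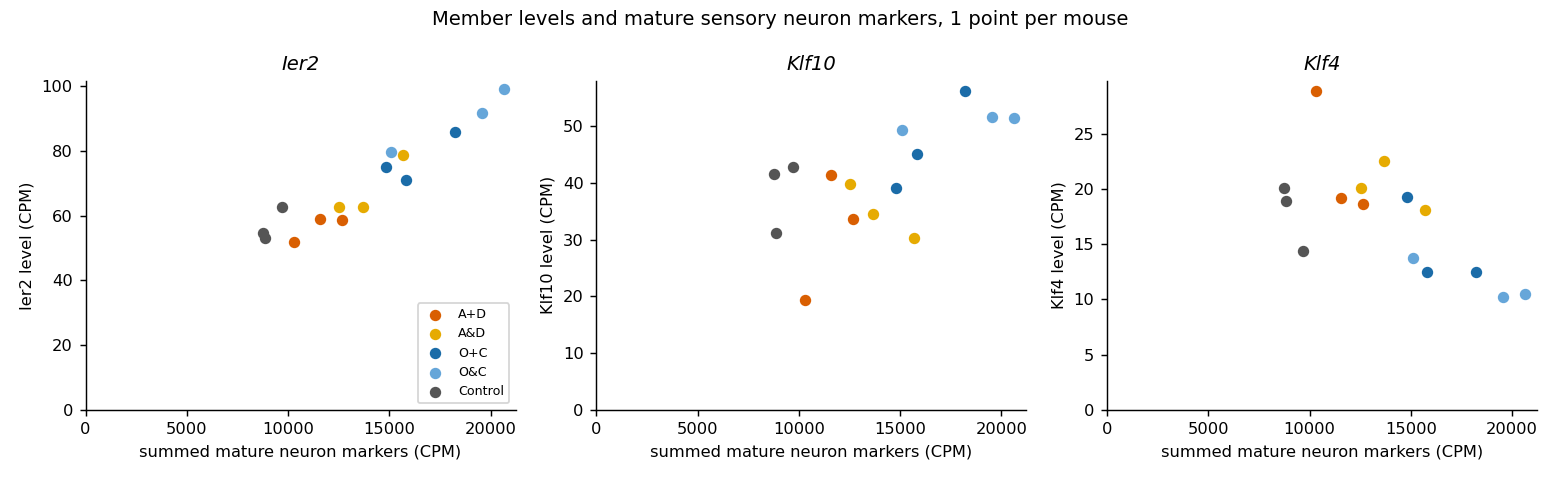
CPM of Ier2, Klf10 and Klf4 (vertical axes, from 0) against the summed CPM of 10 mature olfactory sensory neuron markers (horizontal axis), 1 point per library, coloured by group. Ier2 is at 51.7 to 62.8 CPM in the 8 libraries with the lowest marker sums and at 71.0 to 99.2 CPM in the other 7, and the 2 lowest Klf4 values are in the 2 O&C libraries with the highest sums.

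The tested genes outside the members whose levels followed each member most closely over the 15 libraries were found by Pearson's correlation of log2 CPM, as a description of libraries that share the 5 groups. They were Rnf128 for Ier2 (r = 0.95), 1700018L02Rik for Ier5 (0.88), Syne4 for Ier3 (0.91), Eef1g for Klf4 (0.94), Pnp2 for Klf6 (0.88), Mtfr1l for Klf10 (0.97) and 4930474H06Rik for Klf2 (0.85). Next came Trp53inp2 and Rbm43 for Ier2, Il17d and Ndufa10 for Ier5, Cdc42ep5 and Ankrd13d for Ier3, and Ptpn14 and Smc2 for Klf4. For Klf6 they were Cenpe and Akr1b8, for Klf10 Isca1 and Nelfb, and for Klf2 Rnf217 and Ppef2. No neuronal activity gene was among the nearest 3 of any member, which says little, since that list holds only 12 of the 19229 tested genes.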

How the data were processed

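The deposited table holds expected counts, which are unscaled estimates of reads and can be fractional. Reads were processed with STAR 2.7.10b and Salmon 1.10.1 on GRCm39, and R 4.4.2 was used, per the submitters' processing notes. The annotation and use of strand are not given in the sources used here. In each library 86.02% to 87.87% of the values were whole. Of 57010 identifiers, 52029 had a symbol. The expected counts deposited by the authors were rounded and tested with edgeR 4.0.16 (limma 3.58.1, R 4.3.3): filterByExpr with a minimum count of 10, TMM scaling, 1 robust quasi-likelihood model over 15 libraries with a mean per group, two-sided, Benjamini-Hochberg over 19229 genes, threshold 0.05. The procedure was tested on simulated data. There were 8 comparisons. DESeq2 1.42.0 was an alternative. The labels name 3 biological replicates per group and 1 batch, and a library is read here as 1 mouse. No libraries held identical values (0 of 105 pairs).

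The members, the 5 comparison lists and the 13 marker lists were chosen with earlier results of these data known. All 7 members are named in every comparison. From each comparison list at most the 3 called genes of smallest adjusted p are named, and Nr4a1 always. The 3 genes of highest correlation are named per member. No protein sequence was used, and the planned comparison of zinc fingers was not made. Intervals cover 95%.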

Additional observations from a re-analysis of the deposited data

How the results depend on the processing

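Over 5 other settings (RLE scaling, no low count filter, a replicate block, only the compared groups in the fit, DESeq2) no called member reversed. Without the filter the genes called were 885 in A+D, 610 in A&D, 208 in A+D against A&D, 204 in O+C against O&C and 204 for the delivery interaction, where the main analysis had 62, 197, 23, 0 and 2. With only the compared groups they were 368 in A&D, 2618 in O+C, 4664 in O&C and 10 in A+D against A&D, with 2 members in O+C. With DESeq2 they were 233 in A+D, 430 in A&D, 41 in A+D against A&D, 4 in O+C against O&C and 6 for the interaction, with 2 members in O+C.

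Leaving out a library, genes called ran from 43 to 527 in A+D, 112 to 201 in A&D, 542 to 1206 in O+C, 1274 to 2284 in O&C, 10 to 20 in A+D against A&D, 0 to 2 in O+C against O&C, 1720 to 4293 between odorant pairs and 1 to 4 for the interaction. The furthest counts came without A+D 1 in A+D (527), Control 1 in A&D (112), O+C 1 in O+C (542), and O&C 3 in O&C (1274) and between pairs (1720). Members called ran from 0 to 1 in O+C, 1 to 3 in O&C and 2 to 4 between pairs. Uncalled members changed sign near 0: against Control in A+D mice Klf2 (-0.012 to 0.15), Ier2 (-0.058 to 0.066) and Ier5 (-0.011 to 0.23), in A+D against A&D mice Klf2 (-0.061 to 0.023), Klf4 (-0.10 to 0.24), Klf10 (-0.40 to 0.096) and Ier3 (-0.080 to 0.28), and in O+C against O&C mice Klf2 (-0.19 to 0.048) and Ier3 (-0.090 to 0.16).

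Same-numbered libraries of different groups deviated together with r from -0.33 to 0.14, and differently numbered ones with r from -0.22 to 0.33. Of the 15 libraries, 0 was most like one of its own number. These values show no sign that the numbers pair the mice, but with 3 mice per group they cannot exclude it. With a replicate block, O+C members called were 0 and interaction genes 1, Ier2 had an adjusted p of 0.0607 in O+C, Klf4 0.0793 in O&C, Kcng1 0.0532 in A+D, and Dusp1 0.0666 and Klf13 0.0687 in O+C. The log2 fold change of Ier3 in O+C against O&C was then 0.0099, with the sign turned and an adjusted p of 1.00. With 3 mice per group, 4 of the 5 member calls against Control were lost when some single library was left out.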
